A study of Mus musculus with 9 samples.

Results

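Gap junctions are channels that join the cytoplasm of neighbouring cells. A ring of connexin subunits forms a hemichannel, and hemichannels of adjoining cells dock to pass ions, second messengers and small metabolites. Pannexins share this membrane topology but work mainly as large pores of single membranes that release ATP. In the brain, connexins couple neural progenitors before birth, join astrocytes and oligodendrocytes into a network that clears potassium in the adult, and form the electrical synapses of some neurons.

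The genes described here are 7 connexins (Gja1, Gjb6, Gjb2, Gjb1, Gjc1, Gjc3 and Gjd2) and 2 pannexins (Panx1 and Panx2), a set of 9 genes chosen by symbol among 45706 gene identifiers. All 9 were found in the count table by their Ensembl identifiers in GENCODE M21. Transcripts were sequenced from whole tissue of the central nervous system of C57BL6/J mice, with no treatment and no genotype given in the labels, in 3 libraries at each of 3 stages. At E9.5 (embryonic day) the tissue was the embryonic head, cut behind the 4th ventricle and trimmed of most tissue outside the neuroectoderm. At E14.5 it was the brain without meninges, and at P60 (postnatal day) the adult brain after perfusion with saline. The dissection thus differed between stages, and dissection and age cannot be told apart. Whether the libraries of a stage came from separate mice is not stated, and the p-values reflect library-to-library spread, which may be technical.

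Library totals ran from 30481975 to 35619093 counts. Levels are counts-per-million (CPM) of the scaled library total, and CPM per kb of exon where different genes are compared. Summed over 7 neuronal markers, the level was 212 to 241 CPM at E9.5, 4627 to 5614 CPM at E14.5 and 7248 to 7894 CPM at P60. Every listed marker of neurons, astrocytes, oligodendrocytes and microglia had reads at every stage. Some had almost none at E9.5, with 1 read of Opalin, 2 of Agt and 3 of S100b over the 3 libraries. The first E9.5 library stood apart, with 381 CPM over 6 muscle markers against 9.45 and 9.49 CPM in the others, and the first E14.5 library was the least like the others of its stage (correlations of log2 CPM across genes of 0.98 and 0.982, against 0.993 between the other two). For the fold changes of the 9 genes, results that turn on either library are given without it. Marker sums and the values of other named genes include both. All 9 genes passed the filter on low counts, Gjb1 through its P60 libraries alone, so the counts of changed genes below describe the set and support nothing further.

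**Figure D1:**
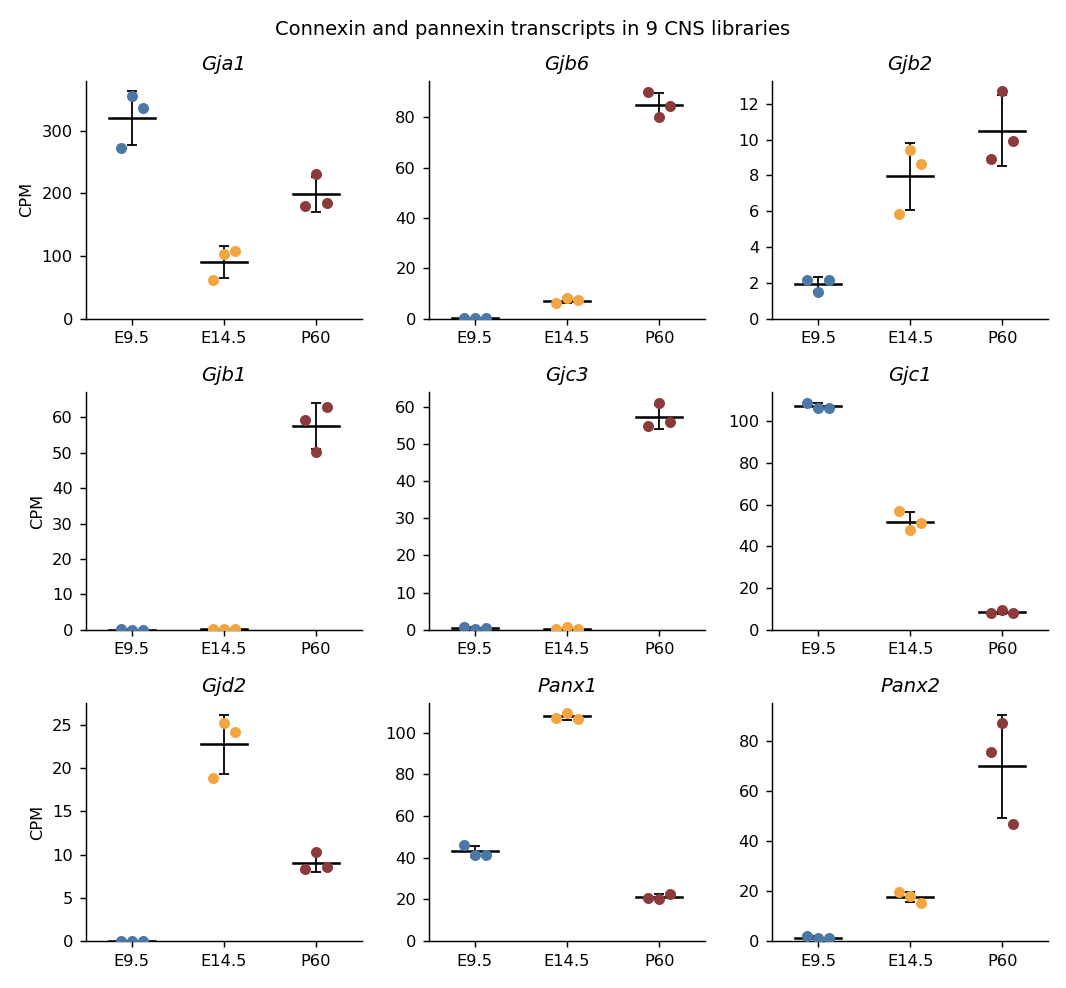
Level of the 9 genes in each library, in CPM (vertical axes start at 0 and differ between panels), at E9.5, E14.5 and P60. Points are libraries, horizontal bars are means and whiskers are SD (n = 3 per stage). Gja1 and Gjc1 were highest at E9.5, Gjd2 and Panx1 at E14.5, and the other 5 genes at P60.

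Between E9.5 and E14.5, 6 of the 9 genes rose (Gjb6, Gjb2, Gjb1, Gjd2, Panx1 and Panx2), 2 fell (Gja1 and Gjc1) and Gjc3 did not pass the test. Over all 17971 genes tested, the test called 64.6% (34% higher, 30.7% lower). The median log2 fold change was 1.77 over the 9 genes and 0.03 over all genes tested. The libraries of the 2 stages did not overlap for 8 of the 9 genes, as for 72.1% of all genes tested. Between E14.5 and P60, 5 genes rose (Gja1, Gjb6, Gjb1, Gjc3 and Panx2), 3 fell (Gjc1, Gjd2 and Panx1) and Gjb2 was not called, against 36.7% higher and 39.4% lower over all genes (76.1% in either direction). Here the median was 1.13 over the 9 genes and -0.06 over all genes, and the libraries did not overlap for 8 of 9 genes and for 76.3% of all genes. Over the whole interval, P60 against E9.5, all 9 genes were called, 6 higher and 3 lower, against 42% and 40.6% of all genes (82.6% in either direction). The P60 and E9.5 libraries were apart, without overlap, for 9 of 9 genes and for 84.9% of all genes. The background is high in each comparison. The P60 against E14.5 and E14.5 against E9.5 comparisons share the E14.5 libraries.

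**Figure D2:**
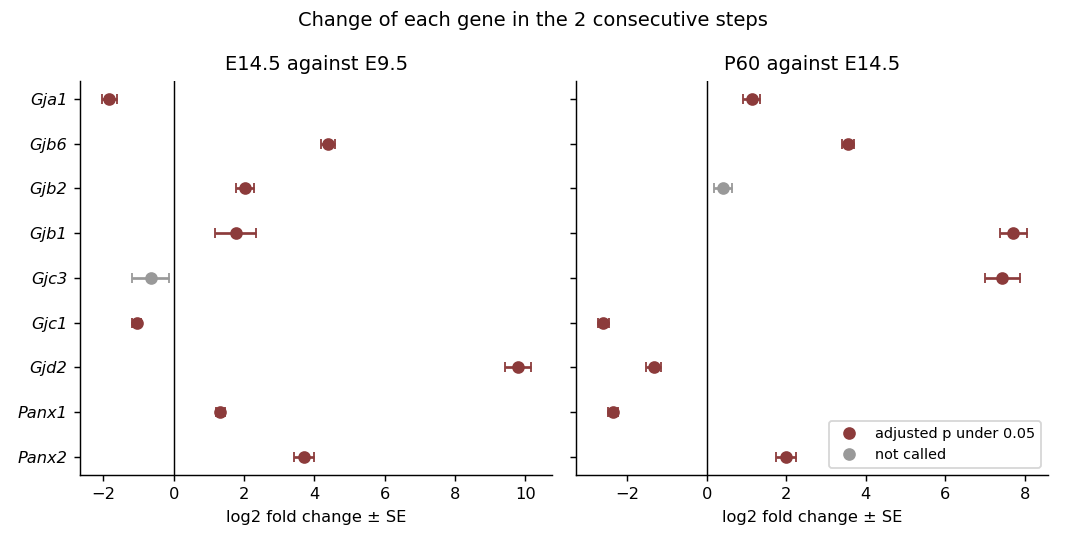
Fitted log2 fold change of each gene (points, with whiskers of 1 SE) from edgeR, E14.5 against E9.5 on the left and P60 against E14.5 on the right. Dark points passed an adjusted p of 0.05 and grey points did not. Gjd2 had the largest rise of the first step (9.79), and Gjb1 (7.71) and Gjc3 (7.44) the largest rises of the second.

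Gja1 (ENSMUSG00000050953; chromosome 10, 56377330 to 56402513, GRCm38) encodes Cx43, the main connexin of radial glia and astrocytes, which is also found in many cell types outside the nervous system. It had 272, 355 and 336 CPM at E9.5, 61.3, 103 and 107 CPM at E14.5, and 180, 231 and 184 CPM at P60. The 3 stages did not overlap, with E9.5 highest, E14.5 lowest and P60 between them. It fell by 1.82 on the log2 scale at E14.5 against E9.5 (SE 0.22, adjusted p = 3.3e-05) and was 2.19-fold higher at P60 than at E14.5 (log2 1.13 ± 0.22, adjusted p = 0.00071), so the adult level stayed below that of E9.5 (log2 -0.69 ± 0.22, adjusted p = 0.012). That last call was lost without the first P60 library (log2 -0.62, adjusted p = 0.056). Markers of other cell types moved with it in 1 step or the other. The 7 surface ectoderm markers summed to 235 to 350 CPM at E9.5, 13 to 14.7 CPM at E14.5 and 6.93 to 13.6 CPM at P60, with all 7 lower at E14.5 than at E9.5. At P60 against E14.5 2 of these were called lower and 5 were not called. Of 8 astrocyte markers, 7 were higher at P60 than at E14.5, the step in which Gja1 rose, and 6 were higher at E14.5 than at E9.5, the step in which it fell. The part of these cell types in the Gja1 levels was not tested. The 7 radial glia markers summed to 1381 to 1661 CPM at E9.5, 1899 to 2669 CPM at E14.5 and 201 to 220 CPM at P60. At E14.5 against E9.5 2 of them were called higher and 5 were not called, and all 7 were lower at P60 than at E14.5. The first E9.5 library had the lowest Gja1 level of its stage and the highest sum of these markers. It also had the highest surface ectoderm sum (350 CPM) and the muscle markers noted above. The first E14.5 library likewise had the lowest Gja1 level (61.3 CPM) and the highest radial glia sum (2669 CPM) of its stage. At P60 the first library had the lowest Gja1 level (180 CPM), but the third had the highest radial glia sum (220 CPM). The part of radial glia in the Gja1 levels was not tested either. In bulk tissue, fewer cells of a type and less RNA per cell cannot be told apart, for this gene and those that follow.

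Gjb6 (ENSMUSG00000040055) and Gjb2 (ENSMUSG00000046352) encode Cx30 and Cx26. Cx30 is a connexin of mature astrocytes, and Cx26 is found in astrocytes and, at higher levels, in the leptomeninges. Both lie on the minus strand of chromosome 14, Gjb2 at 57098600 to 57104702 and Gjb6 at 57123303 to 57133611, with 18.6 kb between them. The gap holds 1 annotated protein-coding gene, Gm4491, and other types of gene were not searched for. Gjb6 had 0.335, 0.398 and 0.287 CPM at E9.5, 6.15, 8.06 and 7.42 CPM at E14.5, and 90.0, 80.0 and 84.4 CPM at P60. Every library of a later stage was above every library of the stage before. The rise was 21.0-fold at E14.5 against E9.5 (log2 4.39 ± 0.20, adjusted p = 3.1e-08) and 11.8-fold at P60 against E14.5 (log2 3.56 ± 0.16, adjusted p = 1.7e-08), and the 247-fold rise over the whole interval was larger in size than the change of 97.0% of genes tested.

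Gjb2 had 2.18, 1.49 and 2.17 CPM at E9.5, 5.85, 9.40 and 8.63 CPM at E14.5, and 8.90, 12.7 and 9.90 CPM at P60. Its E14.5 libraries all lay above its E9.5 libraries, while the E14.5 and P60 libraries overlapped. It rose 4.08-fold in the first step (log2 2.03 ± 0.25, adjusted p = 3.4e-05) and was not called in the second (log2 0.40 ± 0.23, approximate 95% interval -0.16 to 0.96, adjusted p = 0.13). Under upper quartile scaling the second step passed the threshold (log2 0.56, adjusted p = 0.043). The balance of the pair thus differed by stage. The log2 ratio of Gjb6 over Gjb2, each as CPM + 1, was -1.13 ± 0.26 at E9.5, -0.11 ± 0.15 at E14.5 and 2.91 ± 0.32 at P60 (SD, n = 3 each), with no overlap between stages. With 0.25 CPM added in place of 1 CPM, the E9.5 ratio was -1.88.

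Astrocyte and meningeal markers moved beside this pair. Summed over 8 astrocyte markers, the level was 83.2 to 95.5 CPM at E9.5, 341 to 410 CPM at E14.5 and 3778 to 3975 CPM at P60, with 6 of 8 higher in the first step and 7 of 8 in the second. The 8 meningeal markers summed to 842 to 1052 CPM, 515 to 785 CPM and 1545 to 2013 CPM at E9.5, E14.5 and P60. In the first step 5 of these 8 were higher and 2 lower, and in the second 2 were higher and 5 lower. Single genes weigh heavily in the meningeal sums. Igf2 alone had 847 ± 107 CPM at E9.5 (SD). Ptgds had 31.0 CPM at E14.5 and rose by 5.64 ± 0.32 on the log2 scale at P60. The sums therefore do not measure meningeal content. The part of either cell type in the Gjb6 and Gjb2 levels was not tested.

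The sequences before the annotated starts of Gjb2 and Gjb6 are shown because the genes share a locus but differed in the size of their rise. Both are the 250 bases upstream of the RefSeq start (GRCm38.p6, minus strand), Gjb2 at chr14:57104703-57104952 and Gjb6 at chr14:57133612-57133861, with GC boxes (GGGCGG on either strand) in capitals:
Gjb2: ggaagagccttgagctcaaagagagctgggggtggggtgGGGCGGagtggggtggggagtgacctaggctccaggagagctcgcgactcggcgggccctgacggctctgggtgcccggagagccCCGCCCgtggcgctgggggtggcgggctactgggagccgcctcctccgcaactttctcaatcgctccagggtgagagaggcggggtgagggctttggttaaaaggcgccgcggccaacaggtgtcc
Gjb6: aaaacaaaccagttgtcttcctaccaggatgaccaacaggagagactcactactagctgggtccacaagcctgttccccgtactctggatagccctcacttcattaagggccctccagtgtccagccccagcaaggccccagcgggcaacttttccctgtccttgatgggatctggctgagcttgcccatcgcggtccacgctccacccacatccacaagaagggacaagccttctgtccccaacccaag
The Gjb2 window was 69.2% G and C with 18 CpG dinucleotides and 2 GC boxes, starting 211 and 126 bases before the start. The Gjb6 window was 56.8% G and C with 5 CpG and no GC box. Over 32851 such windows the median was 52.4% G and C and 6 CpG, and 32.7% held a GC box. None of these matches is evidence of use.

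Gjb1 (ENSMUSG00000047797; chromosome X, 101376378 to 101385629) encodes Cx32 and Gjc3 (ENSMUSG00000056966; chromosome 5, 137953461 to 137963098) encodes Cx29, both connexins of oligodendrocytes and of the Schwann cells of peripheral nerve. These genes were near zero before birth. Gjb1 had 5, 0 and 2 reads at E9.5 and 10, 11 and 7 reads at E14.5, against 1776, 1714 and 2134 reads at P60, or 59.2, 50.3 and 62.9 CPM. Gjc3 had 25, 10 and 12 reads at E9.5 and 3, 22 and 9 reads at E14.5, against 1642, 2071 and 1892 reads at P60, or 54.7, 60.8 and 55.8 CPM. The embryonic libraries of both genes lay far below every P60 library. At P60 against E14.5, Gjb1 rose 210-fold (log2 7.71 ± 0.34, adjusted p = 1.7e-08) and Gjc3 rose 173-fold (log2 7.44 ± 0.45, adjusted p = 1.3e-07), changes larger in size than those of 99.3% and 99.1% of genes tested.

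The first step differed in firmness. Gjb1 was called higher at E14.5 than at E9.5 (log2 1.77 ± 0.59, adjusted p = 0.021), on 28 reads in all against 7. The call was lost without the third E9.5 library (adjusted p = 0.066) or the second E14.5 library (adjusted p = 0.056). Gjc3 was not called (log2 -0.65 ± 0.53, approximate 95% interval -1.95 to 0.64, adjusted p = 0.30), and its E14.5 and E9.5 libraries overlapped. Without the second E14.5 library it was called lower (log2 -1.52, adjusted p = 0.029), and without the first libraries of both stages its sign turned (log2 0.32, adjusted p = 0.52). In sequence, 3.44% of the 50-base stretches of Gjc3 transcripts also occur in transcripts of other genes, so some of these few reads are uncertain.

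Per kb of exon, Gjb1 had 33.7 CPM at P60 and Gjc3 13.1 CPM, and every Gjb1 library was above every Gjc3 library. Oligodendrocyte markers moved with both genes. All 8 were higher at P60 than at E14.5, and their sum was 63.8 to 66.3 CPM at E9.5, 80.1 to 113 CPM at E14.5 and 13871 to 16186 CPM at P60. Their part in these rises was not tested.

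RefSeq lists 4 starts for Gjb1, and liver and nerve tissue are known to use different ones. The counts are per gene and do not tell them apart. The 250 bases before the start nearest to the coding exon (chrX:101383482-101383731, plus strand) are shown with those before the Gjc3 start (chr5:137963099-137963348, minus strand), since SOX10, a factor of myelinating cells, binds cores such as ACAATG and ACAAAG. Capitals mark GC boxes, these cores and TATAAA on either strand:
Gjb1: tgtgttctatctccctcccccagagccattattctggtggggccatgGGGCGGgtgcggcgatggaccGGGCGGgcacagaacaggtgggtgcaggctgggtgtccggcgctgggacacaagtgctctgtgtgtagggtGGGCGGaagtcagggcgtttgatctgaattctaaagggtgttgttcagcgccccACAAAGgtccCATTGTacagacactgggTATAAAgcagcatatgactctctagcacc
Gjc3: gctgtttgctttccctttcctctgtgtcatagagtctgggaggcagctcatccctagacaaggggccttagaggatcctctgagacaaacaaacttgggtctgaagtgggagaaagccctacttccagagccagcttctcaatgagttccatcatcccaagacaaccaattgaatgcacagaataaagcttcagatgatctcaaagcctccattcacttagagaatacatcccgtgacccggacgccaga
The Gjb1 window held ACAAAG starting 57 bases and ACAATG (as its reverse complement) 47 bases before the start, TATAAA at 29 bases, and 3 GC boxes. The shares of all 32851 windows with these were 16.5% for ACAAAG, 10.7% for ACAATG, 12.4% for TATAAA and 32.7% for a GC box. The Gjc3 window held none of these letters. Of the 4 Gjb1 windows, the one shown held the most matches. Among the others, only the window of the start farthest upstream held any, 1 ACAAAG starting 176 bases before that start. Nothing follows from a match or its absence about binding.

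Gjc1 (ENSMUSG00000034520; chromosome 11, 102799579 to 102819700) encodes Cx45, a connexin of early embryonic cells, immature neurons and vascular smooth muscle. It had 109, 107 and 106 CPM at E9.5, 56.8, 47.7 and 51.2 CPM at E14.5, and 7.97, 9.66 and 7.99 CPM at P60. The stages descended without overlap, and the E9.5 libraries lay within 3 CPM of each other. It fell by 1.05 on the log2 scale at E14.5 against E9.5 (SE 0.13, adjusted p = 4.2e-05), fell by 2.60 at P60 against E14.5 (SE 0.14, adjusted p = 6.5e-08), and was 12.5-fold lower at P60 than at E9.5 (adjusted p = 2.8e-09). Among other markers, all 7 of surface ectoderm fell with Gjc1 in the first step and all 7 of radial glia fell with it in the second, by the values given above for Gja1. The 6 mural cell markers were mixed. In the first step 4 rose and 1 fell, and in the second 2 rose, 2 fell and 2 were not called, while their sum was 99.2 to 150 CPM at E9.5, 216 to 256 CPM at E14.5 and 299 to 338 CPM at P60. The part of these cell types in the Gjc1 levels was not tested.

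Gjd2 (ENSMUSG00000068615; chromosome 2, 114009601 to 114013619) encodes Cx36, the main connexin of neuronal electrical synapses. It had 1, 1 and 0 reads at E9.5. At E14.5 it had 626, 903 and 841 reads, or 18.9, 25.3 and 24.2 CPM, and at P60 it had 248, 351 and 291 reads, or 8.27, 10.3 and 8.58 CPM. It was nearly silent at E9.5 and highest at E14.5, and no 2 stages overlapped. Summed reads gave a ratio of 1044 for E14.5 over E9.5, with a 95% interval of 289 to 8627 that covers counting error only, and the fitted value was 9.79 ± 0.36 on the log2 scale (adjusted p = 1.1e-08). This change was larger in size than that of 99.9% of genes tested. At P60 against E14.5 it was 2.52-fold lower (log2 -1.33 ± 0.19, adjusted p = 8.4e-05), yet far above E9.5, with a ratio of summed reads of 415 (95% interval 115 to 3431). The 7 neuronal markers all rose in the first step, and in the second 4 rose and 3 fell (Tubb3, Map2 and Stmn2). Their sum was 4627 to 5614 CPM at E14.5 and 7248 to 7894 CPM at P60. The part of neurons in the Gjd2 levels was not tested. Annotated antisense genes named A530058N18Rik, under 2 identifiers, overlap 57 and 18 exon bases of Gjd2 (1.98% and 0.625%), and reads there cannot be told apart without strand.

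Relative to each other, Gjc1 was the higher of the pair per kb at E9.5 and Gjd2 at P60. The log2 ratio of Gjc1 over Gjd2, as CPM + 1, was 6.73 ± 0.02 at E9.5, 1.16 ± 0.34 at E14.5 and -0.07 ± 0.02 at P60 (SD, n = 3 each), without overlap. With 2 reads of Gjd2 over all E9.5 libraries, the ratio and SD of that stage depend on the added 1 CPM. With 0.25 CPM the E9.5 ratio was 8.63. Per kb of exon, Gjc1 had 21.4 ± 0.291 CPM at E9.5, 10.4 ± 0.919 CPM at E14.5 and 1.71 ± 0.195 CPM at P60, and Gjd2 had 0.00772 ± 0.00668, 7.91 ± 1.19 and 3.14 ± 0.382 CPM at the same stages.

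The windows before the Gja1 start (chr10:56377050-56377299, plus strand) and the Gjd2 start (chr2:114013620-114013869, minus strand) are shown because these genes moved in opposite directions in both steps. Capitals mark GC boxes and the AP-1 motif TGANTCA on either strand:
Gja1: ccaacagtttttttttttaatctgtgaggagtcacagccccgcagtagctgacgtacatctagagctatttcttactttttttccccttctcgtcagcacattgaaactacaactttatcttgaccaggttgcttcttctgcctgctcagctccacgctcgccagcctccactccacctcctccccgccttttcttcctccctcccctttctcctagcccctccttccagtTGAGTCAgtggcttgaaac
Gjd2: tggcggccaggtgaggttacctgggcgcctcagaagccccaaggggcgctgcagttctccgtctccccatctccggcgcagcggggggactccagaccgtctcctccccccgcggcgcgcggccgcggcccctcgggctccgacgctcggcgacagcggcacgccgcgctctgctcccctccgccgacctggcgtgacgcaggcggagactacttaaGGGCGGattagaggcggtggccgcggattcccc
The Gjd2 window was 74.0% G and C with 33 CpG and 1 GC box, starting 33 bases before the start. The Gja1 window had 6 CpG and an AP-1 motif 19 bases before the start, a motif found in 6.75% of all windows.

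**Figure D3:**
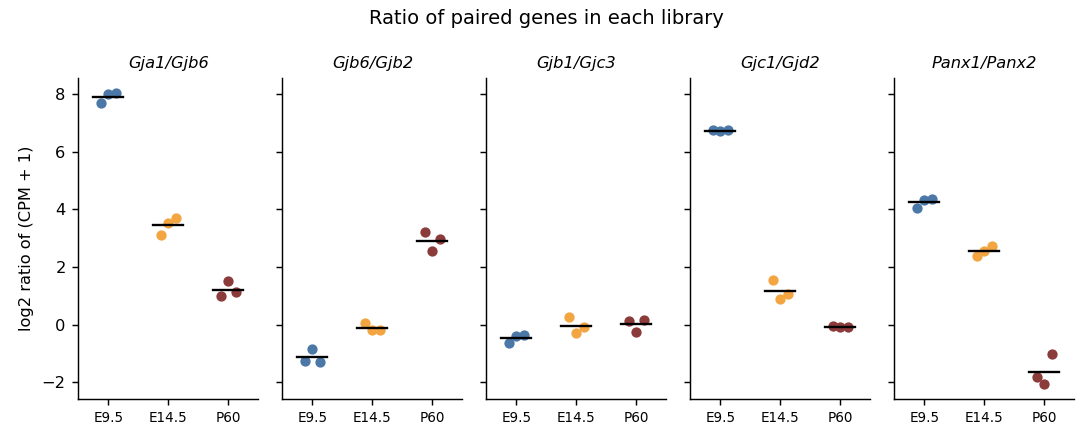
Log2 ratio of (CPM + 1) of the first over the second gene of each pair, in each library, at E9.5, E14.5 and P60. Points are libraries and bars are means (n = 3 per stage); heights are not corrected for gene length, so only shifts between stages can be read. Gja1/Gjb6, Gjc1/Gjd2 and Panx1/Panx2 fell at each step, and Gjb6/Gjb2 was -1.13 at E9.5 and 2.91 at P60.

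Panx1 (ENSMUSG00000031934; chromosome 9, 15002128 to 15045478) encodes the widely expressed ATP-releasing pannexin, and Panx2 (ENSMUSG00000058441; chromosome 15, 89059734 to 89073567) the pannexin most abundant in the brain. Panx1 had 46.1, 41.5 and 41.4 CPM at E9.5, 107, 110 and 107 CPM at E14.5, and 20.6, 20.1 and 22.5 CPM at P60. Its E14.5 libraries stood above all others, and its P60 libraries were the lowest. It rose 2.51-fold at E14.5 against E9.5 (log2 1.33 ± 0.12, adjusted p = 3.4e-06) and was 5.12-fold lower at P60 than at E14.5 (log2 -2.36 ± 0.12, adjusted p = 5.6e-08). Panx2 had 1.84, 1.13 and 1.09 CPM at E9.5, 19.6, 17.9 and 15.4 CPM at E14.5, and 75.6, 87.4 and 46.9 CPM at P60. It ascended without overlap, and the third P60 library was well below the other P60 libraries. It rose by 3.70 ± 0.29 on the log2 scale at E14.5 against E9.5 (adjusted p = 1.1e-06) and 3.97-fold at P60 against E14.5 (log2 1.99 ± 0.25, adjusted p = 2.8e-05).

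The balance between the pannexins turned over between the embryo and the adult. Per kb of exon, Panx1 had 7.13 ± 0.446 CPM at E9.5, 17.9 ± 0.259 CPM at E14.5 and 3.49 ± 0.21 CPM at P60. Panx2 had 0.375 ± 0.118 CPM, 4.90 ± 0.592 CPM and 19.4 ± 5.79 CPM at those stages (SD, n = 3 each). Panx1 was thus the higher of the pair in every embryonic library and Panx2 in every P60 library, with either measure of gene length.

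Ranked per kb within a stage, Gja1, Gjc1 and Panx1 led at E9.5 in that order, each above the next in every library. At E14.5 the order depended on the length used. Over the union of exons Panx1 led, ahead of Gjc1 and Gja1, whose libraries overlapped. With the longest transcript Gja1 (23.3 CPM per kb) led Panx1 (18.8 CPM per kb), also with overlap. At P60 the union of exons put Gjb1 (33.7 CPM per kb) and Gjb6 (31.7 CPM per kb) first, with overlapping libraries, and Gja1 after Panx2, at 19.3 CPM per kb. The longest transcript put Gja1 first, at 51.0 CPM per kb. Gja1 is the gene most affected because its annotated exons span 10257 bases in all and its longest transcript 3889. Gjc1 was the lowest of the 9 at P60 with both lengths, and Gjd2 the lowest at E9.5, where its libraries overlapped those of Gjb1.

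**Figure D4:**
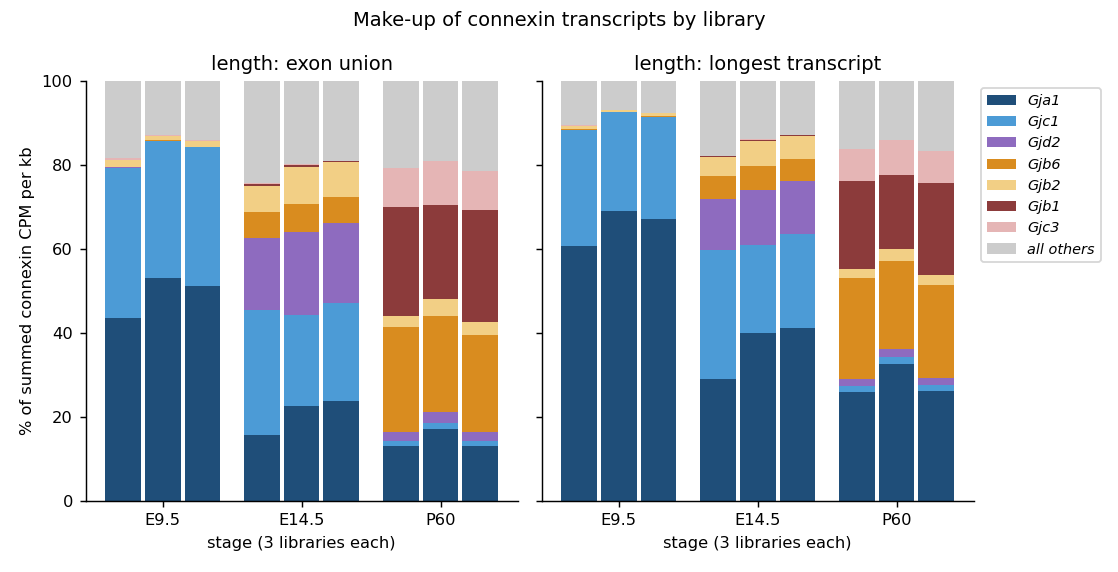
Share of each connexin gene in the summed CPM per kb of all 20 annotated connexins, per library (bars), with the union of exons (left) or the longest transcript (right) as gene length. Gja1 and Gjc1 made up most of the sum at E9.5, and Gjb6, Gjb1 and Gjc3 had their largest shares at P60. The grey part sums the other connexins.

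Summed over all 20 annotated connexins, the level was 63.4 ± 2.28 CPM per kb at E9.5, 42.1 ± 3.49 CPM per kb at E14.5 and 134 ± 2.69 CPM per kb at P60 (SD, n = 3), so on this scale the E14.5 libraries were the lowest and the P60 libraries the highest. With the longest transcript as length the sums were 125 ± 8.94, 62.5 ± 7.22 and 180 ± 2.13 CPM per kb at E9.5, E14.5 and P60, in the same order. Without a length correction E14.5 was again lowest, at 167 to 215 CPM, but the E9.5 libraries (409 to 482 CPM) and the P60 libraries (468 to 508 CPM) overlapped. Shares are given of the sum per kb over the union of exons, unless the longest transcript is named. Gja1 and Gjc1 together made up 83.1 ± 3.3% of that sum at E9.5, 45.6 ± 1.45% at E14.5 and 15.7 ± 2.48% at P60. Gjb1 made up 0.0732 ± 0.0816% at E9.5, 0.379 ± 0.1% at E14.5 and 22.4 to 26.9% in the P60 libraries, and Gjc3 0.190 ± 0.109%, 0.169 ± 0.135% and 9.76 ± 0.729% at the 3 stages. Gjb6 made up 0.201 ± 0.0307%, 6.38 ± 0.385% and 23.6 ± 1.25%, and Gjd2 reached 18.7 ± 1.34% at E14.5 against 2.34 ± 0.327% at P60. With the longest transcript as length, Gja1 and Gjc1 held 90.8 ± 2.17%, 61.5 ± 1.98% and 29.7 ± 3.9%, while Gjb1 held 20.2 ± 2.37% and Gjc3 7.93 ± 0.379% at P60.

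Of the 14 other connexin and pannexin genes, 7 had enough reads to be tested. In the first step 3 of them rose and 4 fell (34% and 30.7% of all genes). In the second 3 rose and 2 fell (36.7% and 39.4% of all genes). The falls of the first step include the epithelial connexin Gjb5, with 0.0694 ± 0.0761 CPM at E14.5 against 2.05 ± 0.773 CPM at E9.5 (log2 -4.84 ± 0.65, adjusted p = 6.8e-05). It fell with the surface ectoderm markers given above, and the share of that tissue in the fall was not tested. Gja4, a connexin of arterial endothelium, had 6.19 ± 0.211 CPM at E9.5, 12.5 ± 0.399 CPM at E14.5 and 6.59 ± 0.9 CPM at P60, called higher in the first step and lower in the second. Gja5, the other arterial connexin, fell in both steps, to 0.587 ± 0.286 CPM at P60 against 3.25 ± 0.644 CPM at E14.5 in the second (log2 -2.45 ± 0.34, adjusted p = 6.8e-05). The 6 endothelial markers summed to 225 to 262 CPM, 238 to 272 CPM and 160 to 185 CPM at E9.5, E14.5 and P60.

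Genes that bind or traffic connexins moved in both directions. Of 15 tested, 8 rose and 4 fell in the first step (34% and 30.7% of all genes), and 3 rose and 10 fell in the second (36.7% and 39.4% of all genes). The scaffold Tjp1 (ZO-1), which anchors Cx43 and Cx36, fell in both, with 229 ± 37.6 CPM at E9.5, 91.4 ± 35.5 CPM at E14.5 and 36.5 ± 13.8 CPM at P60 (adjusted p = 0.0045 and 0.0036), although its P60 and E14.5 libraries overlapped. Hepacam, a glial adhesion protein that localises Cx43 to cell contacts, rose by 5.91 ± 0.28 and 3.80 ± 0.19 on the log2 scale in the 2 steps (adjusted p = 3.9e-08 and 3.3e-08). Cdh2, N-cadherin, and Dbn1, an actin-binding partner of Cx43, fell in the second step by 2.66 and 2.62 on the log2 scale (adjusted p = 8.1e-07 and 1.9e-07).

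Of 14 genes of astroglial potassium, water and glutamate handling, 10 rose and 1 fell in the first step (34% and 30.7% of all genes), and 12 rose and 1 fell in the second (36.7% and 39.4% of all genes). Aqp4, the astrocyte water channel, had 2.16 ± 0.484 CPM at E9.5, 1.53 ± 0.837 CPM at E14.5 and 122 ± 26.5 CPM at P60. It was not called in the first step and rose in the second (log2 6.31 ± 0.41, adjusted p = 2.1e-07), while the potassium channel Kcnj10 was called higher in both (log2 3.55 ± 0.33 and 2.87 ± 0.29). Of 19 purinergic genes, which act downstream of released ATP, 13 rose and 3 fell in the first step, and 12 rose and 2 fell in the second, beside the same shares of all genes. The microglial receptor P2ry13 had no reads at E9.5. Its ratio of summed reads, E14.5 over E9.5, had a lower 95% limit of 27.5 (counting error only). With 3 counts over the stage in place of 0 the ratio was 34.4. P2ry12 had 0.0545 ± 0.0183, 2.76 ± 1.3 and 29.5 ± 6.66 CPM across the stages. P2rx7, an ATP-gated channel that is often studied with Panx1, rose in both steps (log2 4.18 ± 0.36 and 1.31 ± 0.27, adjusted p = 2.5e-06 and 0.001), so it did not share the Panx1 fall of the second. Of 9 tested genes of other large-pore channels, 4 rose in the first step while the other 5 were not called. In the second 4 rose and 4 fell. The shares of all genes were 34% higher and 30.7% lower in the first step, and 36.7% and 39.4% in the second. Lrrc8d, a subunit of volume-regulated anion channels, rose and then fell as Panx1 did (log2 0.68 ± 0.18 and -1.68 ± 0.19, adjusted p = 0.0066 and 1.1e-05).

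For each of the 9 genes the 3 closest patterns were sought among 10415 genes (10416 for Gjb2) with at least 20 CPM in some stage, by the distance between centred log2 CPM profiles over the 9 libraries. These profiles share libraries and have only 3 stage levels, so distances describe and do not test. Gjc1 had the closest match of all, Cdc25b (distance 0.208, r = 0.999), followed by Fzd2 and Rtel1. Cdc25b had 108, 51.9 and 8.46 CPM at E9.5, E14.5 and P60, near the 107, 51.9 and 8.54 CPM of Gjc1. The closest to Gja1 were Tril (0.438), Dph1 and Prps2, to Gjb6 Vxn (0.606), Cend1 and Creg2, and to Gjb2 Ypel2 (0.59), Stau2 and Macrod2. Gjb1 was nearest to Hapln2 (1.05), Plekhb1 and Cmtm5, and Gjc3 to Il33 (1.61), with Rasl10a among its 3 closest. Gjd2 was nearest to Chl1 (0.857), Myt1l and Ppfia2, Panx1 to Zfp811 (0.457), Rimklb and Spast, and Panx2 to Sema7a (0.674), Ankrd34a and Rcan2. The largest of these first distances were those of Gjc3 and Gjb1.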

How the data were processed

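The values deposited are raw counts of reads for each gene in 9 libraries. Trimmomatic 0.36, STAR 2.5.2b and the mm10 build are named in the submitters' processing notes. How reads were assigned to genes, with which annotation and strand setting, is not given in the sources used here. Reads of overlapping genes on opposite strands may be mixed. Per the labels' protocols, cDNA was primed from about 1 ng of total RNA with an ultra-low-input kit and amplified by PCR, without molecular identifiers named. Intervals and floors therefore cover counting error only.

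Symbols, coordinates and lengths came from GENCODE M21 (GRCm38), which matched 45143 of 45706 identifiers, and promoter windows from a RefSeq table (GRCm38.p6) that held 7 of the 9 genes. Motifs were chosen with the sequences in view. All libraries were fitted together in edgeR 4.0.16 (R 4.3.3) with TMM scaling, filterByExpr by stage and the robust quasi-likelihood test, stage as the only factor. The tests are two-sided, with Benjamini-Hochberg adjustment over the 17971 genes that passed the filter and a threshold of 0.05. Fold changes are log2 ± SE, with SE derived from the size of the fold change and the F statistic, and approximate 95% intervals use 6 residual degrees of freedom. The common biological coefficient of variation was 19.9%, so the spread between libraries, not depth, limits abundant genes. The labels' replicate numbers were checked by the correlation of deviations from stage means. For E14.5 against E9.5 all 3 same-numbered pairs were over 0.1 (0.37, 0.14 and 0.21). The second E9.5 library, however, correlated better with the third E14.5 library (0.18) than with the second. For the other comparisons not every same-numbered pair was over 0.1. Pairing is neither stated in the labels nor established by these values, and the main fit did not use the numbers. The scripts were tested on simulated counts. The genes described, the lists and the tests were chosen with earlier results of these data known. All 9 genes are named. From the other lists the rule took up to 3 called genes moving the commoner way and 1 moving the opposite way per step, by size of change, plus any other connexin with 1 CPM in a stage. Tjp1 and Lrrc8d, P2rx7 in the second step, and Aqp4 and Kcnj10 in the step where they fall outside the rule, were named after their values were seen. Alternatives tried were 3 scalings, 2 filters, DESeq2 1.42.0, a replicate block, fits of only the compared stages, each library left out, other gene lengths and another pseudocount. Some results for other genes are not reported here.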

Additional observations from a re-analysis of the deposited data

How the results depend on the processing

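Of 485 refits of the 27 fold changes (9 genes in 3 comparisons), 479 kept direction and side of the threshold, 3 lost their call, 2 gained one and 1 turned its sign. The 3 lost calls and 2 gained ones, in Gjb1, Gja1, Gjc3 and Gjb2, are given with those genes. The sign change was in Gjc3 at E14.5 against E9.5, 0.32 without the first libraries of both stages together, an alternative chosen after seeing the data. Gjb1 gave no value for E14.5 against E9.5 when those stages were fitted alone, since it did not pass the filter on low counts there. Counts of changed genes stayed within 1.5 times under every alternative run, and the cause of the remaining shifts was not tested. Leaving out 1 library gave 10516 to 12360 changed genes at E14.5 against E9.5, 12923 to 14139 at P60 against E14.5 and 14400 to 15549 at P60 against E9.5. Among the 9 genes it gave 5 to 6 higher and 2 to 3 lower in the first step, always 5 higher and 3 lower in the second, and 6 higher and 2 to 3 lower over the whole interval. Scaling moved the median log2 fold change of all genes by more than 0.1 at P60 against E14.5, from -0.06 to 0.10 (upper quartile) and -0.20 (library totals), and at P60 against E9.5 to 0.20 (upper quartile) in place of 0.05. Same-numbered libraries correlated at -0.22 to 0.34 for P60 against E14.5 and -0.10 to 0.11 for P60 against E9.5. Not every library correlated best with its own number, and in the main fit the numbers were labels only in all 3 comparisons. A replicate block gave 12121, 14015 and 15081 changed genes in the 3 comparisons and changed no call among the 9 genes. Gene length changed levels per kb of Gja1 most (82.5 CPM per kb at E9.5 with the longest transcript, 31.3 with all exons). Ratios that include a gene near 0 CPM depend on the pseudocount. Gja1 over Gjb6 at E9.5 was 9.08 with 0.25 CPM and 7.90 with 1 CPM, and Gjc1 over Gjd2 was 8.63 and 6.73.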
